A study of Mus musculus with 7 samples.

Results

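Pregranulosa cells are the somatic supporting cells of the fetal ovary, and at E14.5 those with messenger RNA of Foxl2 and little or none of Gng13 were taken as a group of their own. A cell was a member if it held at least 1000 genes, at least 1 UMI (unique molecular identifier, 1 captured RNA molecule) of Foxl2, at most 2 of Gng13, at least 2 of Wnt6 and Kitl together, none of Pax8, at most 1 of Upk3b and at most 1 of Dazl and Ddx4 together. These limits were met by 592 cells, which were 5.35% (exact binomial 95% interval 4.94 to 5.79%) of the 11060 cells of the library with at least 200 genes and 7.22% of its 8202 somatic cells, those with at most 1 UMI of Dazl and Ddx4. The whole series holds 50823 cells with at least 200 genes, germ cells included, in 7 libraries.

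The library came from untreated wild-type C57BL/6J embryos at E14.5, whose dissected ovaries were trypsinised at 37 °C for 40 min and loaded without any sort. Libraries of the same strain at 6 other ages, from embryonic day E11.5 to postnatal day P5, were read with the same limits. Each age is 1 library of pooled gonads, so that cells are not replicates of an age and nothing here was tested. The members held 3817320 UMIs, with a median of 5807.5 UMIs (lowest 2025, highest 16634) and 2263.5 genes per cell. Barcodes of 25 members (4.22%) also occurred in another library, as did those of 442 of all 11060 cells kept at E14.5.

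The cells were chosen by their UMI counts of the 8 genes of the limits and by their number of genes, and the levels of those genes are therefore a description. Gene levels here are the UMIs of a gene over the UMIs of all genes, summed over the cells of a class and scaled to counts per 1000000 (CPM), with an exact Poisson 95% interval. The protocol counts molecules from their 3′ ends, so that values were not divided by transcript length. A ratio of 2 levels is given with its exact conditional interval. All intervals cover counting error only.

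Pregranulosa cells surround the germ cells, first in cysts and then in primordial follicles, and later become granulosa cells. FOXL2 is a forkhead transcription factor that starts in the supporting cells of the ovary and maintains granulosa identity. WNT4 and RSPO1 act through β-catenin in the same lineage, and KIT ligand is the signal from these cells to the KIT receptor of oocytes. GNG13 is a G protein γ subunit and LGR5 a receptor for R-spondins, and RNA of both is found in the surface epithelium of the fetal ovary. The study named pregranulosa cells from bipotential precursors, which express Foxl2 early, bipotential pregranulosa (BPG) and those from the surface epithelium epithelial pregranulosa (EPG).

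Among the members, 399 had 1 UMI of Foxl2, 131 had 2 and 62 had 3 or more. Gng13 was at 0 in 369, at 1 UMI in 159 and at 2 in 64. Their summed level of Foxl2 was 229 CPM and of Gng13 75.2 CPM, as fixed by the limits. The comparison classes were the 7610 other somatic cells, with 23.7 CPM of Foxl2, and, among these, 2533 Gng13-high pregranulosa cells that met the same limits but had at least 3 UMIs of Gng13, whatever their Foxl2. Of the latter 479 (18.9%) had a UMI of Foxl2, and their median depth was 6570 UMIs. The other somatic cells, at a median of 5706 UMIs, also held 1110 cells of a mesenchyme gate (Nr2f2 plus Col1a1 at least 3, no Wnt6 or Foxl2), 415 of a surface epithelium gate (Upk3b at least 2), 1098 with fewer than 1000 genes, and 1123 that met every limit of the members except that Foxl2 was at 0.

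Of the 4 genes given as markers of the group, Foxl2 and Kitl belong to the limits. Akr1cl, an aldo-keto reductase, stood at 466 CPM (444 to 488) in members, 183 in Gng13-high cells and 153 in all other somatic cells, a ratio of 3.05 (2.89 to 3.21) to the last. Mgp, which encodes matrix Gla protein, an inhibitor of calcification, did not follow the label against the rest of the library. Its level was 55.3 CPM (48.1 to 63.3) in members and 66.0 in the other somatic cells, a ratio of 0.837 (0.725 to 0.963), although it was only 15.2 in Gng13-high cells. The mesenchyme gate stood at 295 CPM of Mgp. Kitl, part of the limits of both classes, was at 459 CPM in members and 487 in Gng13-high cells.

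Cell by cell, Akr1cl was at 0 in 167 members and Mgp in 447. Both genes had a UMI in 108 members, Akr1cl alone in 317, Mgp alone in 37 and neither in 130. A UMI of Akr1cl was found in 71.8% of members (68.0 to 75.4%), 39.8% of Gng13-high cells, 16.4% of the mesenchyme gate and 6.46% of germ cells, whose median depth was 13198.5 UMIs. After each cell was thinned to 2000 UMIs the shares were 51.0, 22.1, 7.96 and 1.44%, in the same order. The members therefore had the largest share of these classes at equal depth, and the germ cells, which should lack the gene, the smallest. For Mgp the thinned shares were 11.0% of members, 2.02% of Gng13-high cells, 28.9% of the mesenchyme gate and 0.359% of germ cells.

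No member had a UMI of any of the 4 Y-linked genes examined (exact binomial 95% interval up to 0.621%), and 591 had Xist. Markers of endothelial, immune, mural and mesenchymal cells were lower in the members than in the other somatic cells, whereas those of some other cell types were not. Endothelial markers (8 genes) summed to 23.3 CPM in members and 145 in the other somatic cells, with Egfl7 the most abundant at 13.4 CPM and Tie1 at 0. Those of immune cells (8 genes) summed to 1.83 against 52.2 CPM, with Ptprc, Cx3cr1 and Lcn2 at 0. Mural cell markers summed to 35.6 against 122 CPM. Markers of the rete or mesonephric tubules stood at 115 against 125 CPM, of which Pax8, held at 0 in members by the limits, gave 9.83 in the other somatic cells. Those of steroidogenic cells were at 46.1 against 43.9. Sertoli cell markers (6 genes) summed to 104 against 40.6 CPM, nearly all of it from Sox9 and Ptgds, the only members of the list to reach 10 CPM.

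Mesenchymal markers (9 genes) summed to 326 CPM in members and 796 in the other somatic cells. Of the 9, 7 were at least 2-fold lower, as were 3.81% of all genes, among them Col1a1, a fibrillar collagen, at 16.2 against 135 CPM and the orphan receptor gene Nr2f2 at 37.2 against 107. Col3a1, also a fibrillar collagen, was the most abundant of the list, at 159 CPM. Germ cell markers (8 genes, of which Dazl and Ddx4 belong to the limits) summed to 63.9 against 79.5 CPM, with Dazl the most abundant at 13.1. Surface epithelium markers (8 genes) summed to 352 against 402 CPM, of which Upk3b, a gene of the limits, gave 2.62 and 48.1. Their most abundant gene was the keratin gene Krt18, at 167 against 134 CPM, whereas Krt19 was 2.15-fold lower and Krt7 6.95-fold lower in members, and Lhx2 was at 0.

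Leading genes were ranked by the ratio of levels with 50 CPM added to both. Of 8454 genes that reached 10 CPM in members or in the other somatic cells, 202 (2.39%) were at least 2-fold higher in members and 322 (3.81%) at least 2-fold lower, where 2-fold is a fixed size and not a test. The median gene had a ratio of 1.11. Against Gng13-high cells the counts were 236 higher (2.83%) and 151 lower (1.81%) of 8339 genes, with a median ratio of 1.07. In both comparisons the cells were divided by the limits themselves, so these counts describe the groups.

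**Figure D1:**
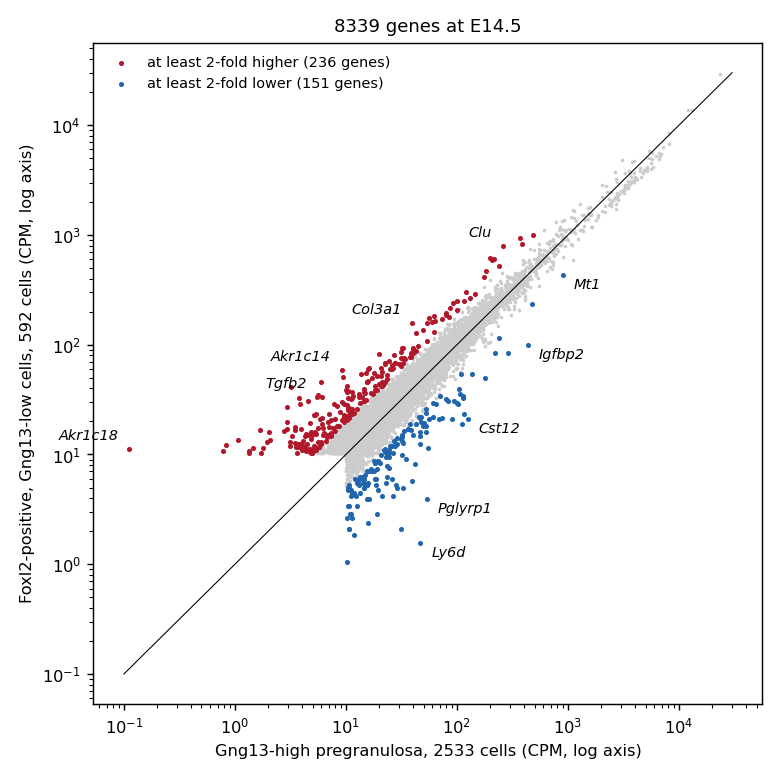
Each point is 1 of 8339 genes, with its level in the 2533 Gng13-high cells (horizontal, CPM, log axis) against that in the 592 members (vertical, CPM, log axis), and the line marks equal levels. The 236 red genes lie at least 2-fold above equality and the 151 blue genes at least 2-fold below; Clu, at 789.8 against 258 CPM, is among the most abundant of the red genes.

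The 15 genes that led the members over the other somatic cells included Gstm6, Clu, Akr1cl, Chchd10, Myl9, Gstm1, Gatm, Sdc4, Cpe, Gstm2, Aard, Fst, Bhlhe41 and Gas6. Akr1cl apart, none of these belongs to the limits or to the given markers. Clusterin, a secreted chaperone encoded by Clu, stood at 789.8 CPM (762 to 819) in members, 258 in Gng13-high cells and 230.5 in all other somatic cells. The ratio to Gng13-high cells was 3.06 (2.92 to 3.20). In the mesenchyme gate Clu was 19.5 CPM and in the surface epithelium gate 64.0.

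Glutathione S-transferases of the mu class, which conjugate glutathione to electrophiles, supplied 3 of the 15 genes. Gstm6 was 606 CPM in members against 169 in the other somatic cells, Gstm1 998 against 396, and Gstm2 1119 against 496. These 3 genes lie close together on chromosome 3 and resemble one another, so the count of each is uncertain. Gatm, which encodes the first enzyme of creatine synthesis, was 418 against 156 CPM. Chchd10, for a protein of the mitochondrial intermembrane space, was 829 against 305. Myl9, a regulatory light chain of non-muscle and smooth-muscle myosin, was 937 against 364.

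Follistatin, the activin antagonist encoded by Fst and a target of WNT4 signalling in the ovary, was at 1185 CPM in members and 852 in Gng13-high cells, a ratio of 1.39 (1.35 to 1.44), but at 9.44 in the mesenchyme gate. It thus marked pregranulosa cells of both kinds more than the members among them. Carboxypeptidase E, a peptide-processing enzyme encoded by Cpe, was 251 against 99.6 CPM. Syndecan 4, a heparan sulphate proteoglycan encoded by Sdc4, was 518 against 237, and Gas6, a ligand of TAM receptor kinases, 449.8 against 254. Bhlhe41, a basic helix-loop-helix repressor, was 129 CPM against 42.4, and Aard, an alanine- and arginine-rich protein gene found in the gonad, 156 against 53.9.

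Of the 15 genes, 12 were also at least 2-fold higher in members than in Gng13-high cells, all but Gstm2, Fst and Gas6, beside 2.83% of all genes. Both comparisons use the same members, and Gng13-high cells make up 33.3% of the other somatic cells, so that the overlap is not independent. Gstm1 fell to 1.99 by the mean of per-cell CPM. Of the remaining 3, Gstm2 had a ratio of 1.85. The list against Gng13-high cells added Tuba1a, Col3a1, Hsd17b11, Map1b, Plin2 and Fbn2. Tuba1a, an α-tubulin, was 595 CPM in members and 208 in Gng13-high cells, and the microtubule protein gene Map1b 183 against 61.8. Col3a1 had the largest ratio of the 15, 4.02 (3.60 to 4.49), at 159 against 39.6 CPM. Against all other somatic cells Col3a1 was level, with a ratio of 0.962 (0.884 to 1.04), and the mesenchyme gate was at 561 CPM. Plin2, which coats lipid droplets, was 303 against 121.

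**Figure D2:**
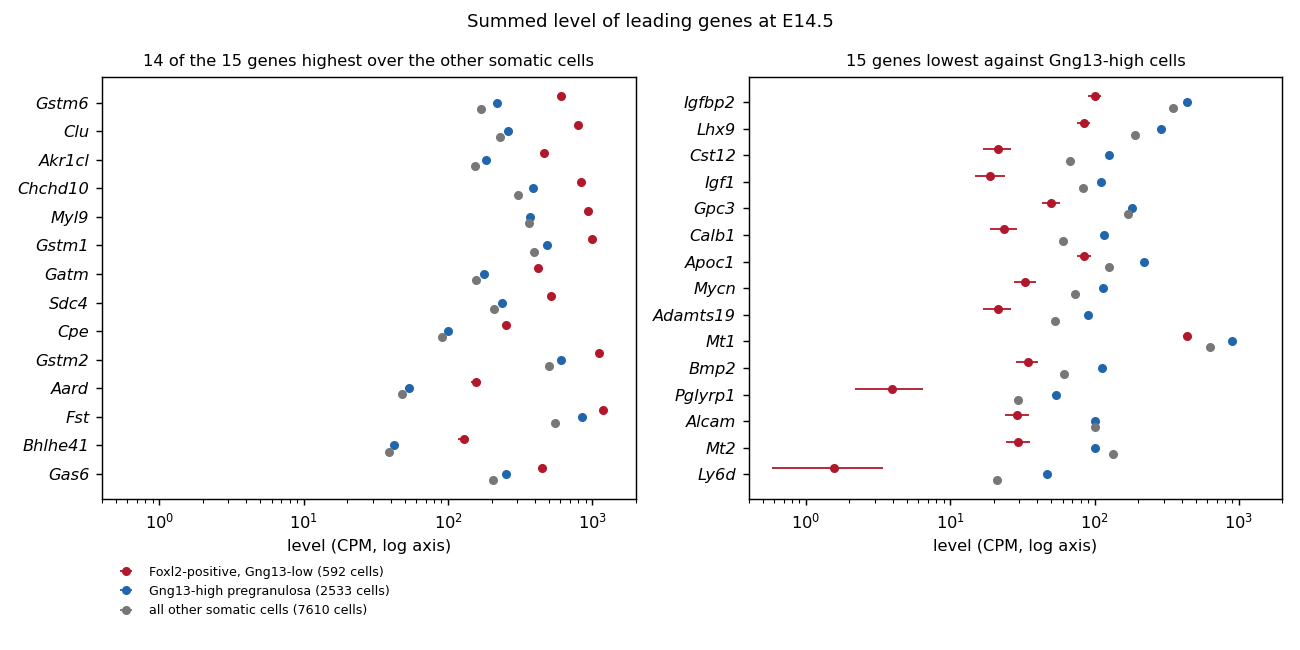
Levels (horizontal, CPM, log axis) of 14 of the 15 genes that lead over the other somatic cells (left) and of the 15 lowest against Gng13-high cells (right), with exact Poisson 95% intervals for counting error, in members (red), Gng13-high cells (blue) and all other somatic cells (grey). On the left every red point lies to the right of both others, and for Clu the members stand at 789.8 CPM against 258 and 230.5; on the right every red point lies to the left of both.

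The genes lowest against Gng13-high cells began with Igfbp2, Lhx9, Cst12, Igf1, Gpc3 and Calb1. Igfbp2, an IGF-binding protein, was 99.8 CPM in members, 437 in Gng13-high cells and 1104 in the surface epithelium gate. Lhx9, a LIM homeobox gene of the early gonad and its surface, followed the same order, at 83.8, 289 and 377 CPM. Insulin-like growth factor 1 (Igf1) was 18.9 against 111 CPM, 5.90-fold lower (4.66 to 7.57). The cystatin gene Cst12 was 5.91-fold lower (4.73 to 7.47), at 21.2 against 125 CPM. Calb1, a calcium-binding protein gene, was 23.6 against 117 CPM, and Gpc3 encodes a glypican.

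The largest ratios among these 15 were those of 2 scarce transcripts. Ly6d, a GPI-anchored surface protein gene, was 1.57 CPM in members and 46.7 in Gng13-high cells, 29.7-fold lower (13.6 to 81.2). Pglyrp1, for a peptidoglycan recognition protein, was 3.93 against 53.7 CPM. Bmp2, a BMP ligand, was 34.3 against 112 CPM, 3.27-fold lower (2.74 to 3.94). The others were Apoc1, Mycn, Adamts19, Mt1, Alcam and Mt2, with Mt1, a metallothionein, at 433 against 896 CPM. All 15 were also below the level of the other somatic cells. With the limits read on 2000 UMIs per cell, Cst12 came to 0.992 and Adamts19 to 0.965 of that level, while Lhx9 (0.818), Calb1 (0.751), Mycn (0.670) and Igf1 (0.536) were no longer 2-fold below it.

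Against all other somatic cells, the 15 lowest genes included 6 haemoglobin genes, Hmgb2, Pclaf, Col1a1, Col1a2, Dlk1, Igfbp2, Ptn and Sfrp1. Haemoglobin took 0.682% of the UMIs of members, 0.735% of Gng13-high cells and 4.23% of the other somatic cells, which include erythroid cells. Erythroid markers (9 genes) summed to 6858 CPM in members and 42473 in the other somatic cells, with Hbb-bs the most abundant at 2466. Among members 9 cells had more than 5% haemoglobin UMIs, with a highest share of 63.6%, and these held 82.9% of the haemoglobin UMIs of the group. When such cells were left out of both groups, an alternative added after the data were seen, the ratio of Hbb-bs moved from 0.167 to 0.887, and that of Hba-x from 0.117 to 1.05. With the other somatic cells held to at least 1000 genes, as the members were, the ratio was 0.816 for Hbb-bs, 0.761 for Hba-a1 and 0.523 for Hba-x. Some of the globin genes resemble one another closely, so the count of each is uncertain.

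Genes of steroid and aldo-keto metabolism were mostly higher in members. Of 14 genes, 8 reached 10 CPM. Of these, 5 were at least 2-fold higher in members (Akr1cl, Akr1c14, Akr1c18, Hsd17b7 and Hsd17b11), beside 2.39% of all genes. None was 2-fold lower, and the median ratio was 2.23. Hsd17b7 lay between 1.85 and 1.95 in 5 alternative settings and thus under 2-fold. Against Gng13-high cells 4 of 8 were at least 2-fold higher (all genes 2.83%) and the median was 2.16. Akr1cl is a given marker of the group, and the study named Akr1c14 and Hsd17b7 as enriched in BPG cells of these data. The counts of this list are therefore not independent evidence. Akr1c14, a 3α-hydroxysteroid dehydrogenase, was 59.2 CPM (51.7 to 67.4) in members, 9.18 in Gng13-high cells and 1.37 in the mesenchyme gate. Hsd17b11, a 17β-hydroxysteroid dehydrogenase of lipid droplets, was 176 against 56.4 CPM. Akr1c18, a 20α-hydroxysteroid dehydrogenase, came from few cells, with a UMI in 10 of the 592 members and in 2 Gng13-high cells.

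Genes of steroid synthesis were measured as well. Star, for the protein that moves cholesterol into mitochondria, was 11.8 CPM in members and 16.2 in Gng13-high cells. Cyp11a1, the side-chain cleavage enzyme, was 0.524 CPM in members, Cyp17a1 3.41 and the aromatase gene Cyp19a1 0.524. Hsd3b1, a 3β-hydroxysteroid dehydrogenase, was lower than in Gng13-high cells, at 30.4 against 48.5 CPM, a ratio of 0.627 (0.512 to 0.762). Hmgcs1, a cytosolic enzyme gene of cholesterol synthesis, was 129 against 153 CPM.

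Promoter windows of 250 bases before the RefSeq start (GRCm38.p6) are shown for Akr1cl and Akr1c14, the aldo-keto reductase genes that led their list in members. The motifs searched on both strands were GTAAACA, the core bound by forkhead factors, and AAGGTCA, a site of the nuclear receptor NR5A1. The letters TATAAA of the box for TBP were searched too, as was AGATAA, a site of zinc finger factors such as GATA4. Capitals mark their matches. The strand shown is that of the gene, minus for Akr1cl at chr1:65032760-65033009 and plus for Akr1c14 at chr13:4059341-4059590.
Akr1cl: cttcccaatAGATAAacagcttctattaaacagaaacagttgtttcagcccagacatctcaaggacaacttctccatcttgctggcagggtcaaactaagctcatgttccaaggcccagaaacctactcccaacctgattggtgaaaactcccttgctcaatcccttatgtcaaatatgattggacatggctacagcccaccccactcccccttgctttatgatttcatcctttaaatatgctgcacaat
Akr1c14: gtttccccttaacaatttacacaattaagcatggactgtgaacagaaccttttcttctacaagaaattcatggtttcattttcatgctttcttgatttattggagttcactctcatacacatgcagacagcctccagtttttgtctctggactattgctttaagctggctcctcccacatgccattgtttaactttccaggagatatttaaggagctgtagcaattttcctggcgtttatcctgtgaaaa

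Of the 21 genes that led in either comparison, 15 were matched to 18 windows. The forkhead core was in 0 of these 18 and in 3.17% of all 32851 windows, and the NR5A1 site in 0 of 18 and 4.08%. The site of zinc finger factors was in 1 of 18, that of Akr1cl, and in 9.99% of all, and the TBP box in 3, those of Col3a1, Gstm1 and Map1b, and in 12.4% of all. These are matches of letters only. Akr1c14 had none of the 4 motifs in its window.

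Transcription factors of the gonad were mostly at like levels in both pregranulosa classes. Of 18 genes compared, 1 (Bhlhe41) was at least 2-fold higher in members and 2 (Lhx9 and Irx5) at least 2-fold lower, with a median ratio of 0.889 to Gng13-high cells (all genes 2.83% higher and 1.81% lower). Runx1, a runt factor of supporting cells, was 136 against 123 CPM. Gata4, for a zinc finger factor, was 125 against 111. Nr5a1 and Wt1, needed to form the gonad, were 32.5 against 47.5 and 342 against 429.6 CPM.

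Sox9, the factor that drives Sertoli cells, was 80.9 CPM (72.2 to 90.5) in members, 27.1 in Gng13-high cells and 27.5 in all other somatic cells, a ratio to the last of 2.94 (2.59 to 3.33). A UMI of Sox9 was found in 200 of the 592 members and 367 of the 2533 Gng13-high cells. After thinning the shares were 16.9% and 5.10%, beside 0.279% of germ cells. Ptgds, the prostaglandin D synthase gene of the same list of 6, had a ratio of 2.09 (1.53 to 2.83) to Gng13-high cells, or 1.83 with Dazl and Ddx4 at 0. Amh, the hormone of Sertoli cells, had a single UMI in all 592 members.

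In the Wnt pathway, Wnt4 was 392 CPM in members and 336 in Gng13-high cells, a ratio of 1.17 (1.10 to 1.24). Rspo1, the R-spondin that potentiates it, was lower, at 113 against 171 CPM. The β-catenin target Axin2 was 71.8 against 64.4. Of 15 genes compared, Dkk3 and the receptor gene Fzd1 were at least 2-fold higher and Lgr5 at least 2-fold lower, against the same 2.83% and 1.81% of all genes. Fzd1 was 36.7 against 14.9 CPM, and Lgr5 30.9 against 93.7, 3.03-fold lower (2.51 to 3.68). Thinned to 2000 UMIs, 7.77% of members and 17.1% of Gng13-high cells held a UMI of Lgr5.

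Ligands, receptors and inhibitors of the BMP and activin family were at least 2-fold higher than in Gng13-high cells in 2 of 17. Another 1 was at least 2-fold lower (all genes 2.83% and 1.81%), and the median ratio was 1.21. Tgfb2, a TGFβ ligand, was 33.5 against 5.54 CPM, but 131 in the mesenchyme gate. Bmpr1b, a type I BMP receptor gene, was 11.8 against 4.25. The BMP targets Id1 and Id3 went opposite ways, Id1 at 279.5 against 412 CPM and Id3 at 1105 against 914. Inha, the inhibin α subunit, was 110.3 against 76.4 CPM in Gng13-high cells and 50.6 in all other somatic cells. Amhr2, the receptor for AMH, was 277 against 358.

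Junction and adhesion genes included Gja1, a connexin gene of granulosa cell gap junctions, at 162 CPM in members, 59.9 in Gng13-high cells and 71.0 in the other somatic cells. Alcam, an adhesion receptor gene, was 29.1 against 101 CPM. None of the 3 Notch genes compared and neither of the 2 hedgehog genes compared passed 2-fold (all genes 2.83% higher and 1.81% lower), with the hedgehog receptor gene Ptch1 at 55.0 against 31.7. For retinoic acid, Stra6, the vitamin A transporter gene, was the 1 of 5 at least 2-fold higher, beside the same 2.83% of all genes, at 19.6 against 2.97. Aldh1a1, which makes retinoic acid, was 189 against 204.

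Of 18 extracellular matrix genes compared with Gng13-high cells, 6 were at least 2-fold higher (Mgp, Col3a1, Col18a1, Fbn2, Mfap2 and Thbs1). Only Gpc3 was at least 2-fold lower (all genes 2.83% higher and 1.81% lower), and the median ratio was 1.30. With the limits read on 2000 UMIs Mfap2 was at 1.97. Thbs1, for thrombospondin 1, was 136 against 49.6 CPM, and the fibrillin gene Fbn2 238 against 91.2. Compared with all other somatic cells, Fbn2 and Thbs1 of 19 were at least 2-fold higher and 5 at least 2-fold lower (all genes 2.39% and 3.81%). Thbs1 was just under 2-fold with the limits read on 2000 UMIs. IGF genes were at least 2-fold lower than in the other somatic cells in 5 of 9 (Igf1, Igfbp2, Igfbp3, Igfbp5 and Igfbp7), beside 3.81% of all genes. Igfbp5 was 156 CPM in members, 102 in Gng13-high cells and 1096 in the mesenchyme gate.

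Cell division genes were at least 2-fold lower than in the other somatic cells in 14 of 16 (all genes 3.81%). None was higher, and the median ratio was 0.222. Mki67, a marker of cycling cells, was 3.41 CPM in members and 24.5 in the other somatic cells, and 1.69% of members (0.813 to 3.08%) against 8.53% held a UMI of it. Gng13-high cells were also low, at 5.20 CPM, and against them 4 of 13 genes (Ccnb1, Pclaf, Rrm2 and Mcm5) were at least 2-fold lower (all genes 1.81%), with a median of 0.621. With the limits read on 2000 UMIs 3 of these 4 were no longer 2-fold lower, Ccnb1 at 0.765, Pclaf at 0.577 and Rrm2 at 0.514. Pclaf was also 0.858 with Foxl2 at 2 UMIs or more, and Rrm2 0.536 by the mean of per-cell CPM. Of 6 genes for inhibitors of the cycle none passed 2-fold in either comparison, as few of any 6 would at the shares of all genes (2.39% higher and 3.81% lower than in the other somatic cells, 2.83% and 1.81% than in Gng13-high cells). Cdkn1b was 226 CPM against 164, and Cdkn1c 1706 against 2686.

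Genes of dissociation and immediate early response, which respond to tissue handling, gave 0 of 17 past 2-fold in either comparison. Over all genes 2.39% were higher and 3.81% lower than in the other somatic cells, and 2.83% and 1.81% than in Gng13-high cells, so that few of any 17 genes would be past it. Their median ratio was 1.27 to the other somatic cells and 1.10 to Gng13-high cells. Fos was 790.3 against 944 CPM, and Jun 1021 against 778. Mitochondrial genes took 5.80% of the UMIs of members and 5.46% of those of Gng13-high cells. The part of handling or RNA quality in the differences above was not tested.

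Both lists that the study chose on these cells were read as well and are not independent evidence. Of 14 BPG genes compared with Gng13-high cells, 8 were at least 2-fold higher (among them Akr1c14, Akr1cl, Mgp, Aard, Gja1, Bex3 and Tuba1a). Bmp2 alone was at least 2-fold lower (all genes 2.83% higher and 1.81% lower). The median ratio was 2.28, and Bex3 was just under 2-fold with Dazl and Ddx4 at 0. Of 11 EPG genes 8 were at least 2-fold lower (Lgr5, Lhx9, Gpc3, Cst8, Cst12, Mt1, Folr1 and Apoc1). None was 2-fold higher, and the median ratio was 0.483. At 2000 UMIs Mt1 (0.507) and Cst8 (0.569) were no longer 2-fold lower. The remaining EPG genes were the keratins Krt8 and Krt18 and the homeobox gene Irx3, with Krt18 at 167 against 149 CPM.

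The limits cut through gradients. Among cells with Foxl2 that met every other limit, Clu was 827, 761 and 655 CPM at 0, 1 and 2 UMIs of Gng13 and 601 just outside, at 3 (50 cells). It was 317 at 7 or more (315 cells). Igfbp2 ran the other way, at 76.6, 134 and 145 inside, 240.2 at 3 and 383 at 7 or more. Akr1cl did not decline inside the limit, at 454, 483 and 486 CPM, and was 437 at 3 UMIs and 198 at 7 or more. Depth moved with Gng13, from a median of 5725 UMIs at 0 to 7268 at 7 or more, and its part was not tested.

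**Figure D3:**
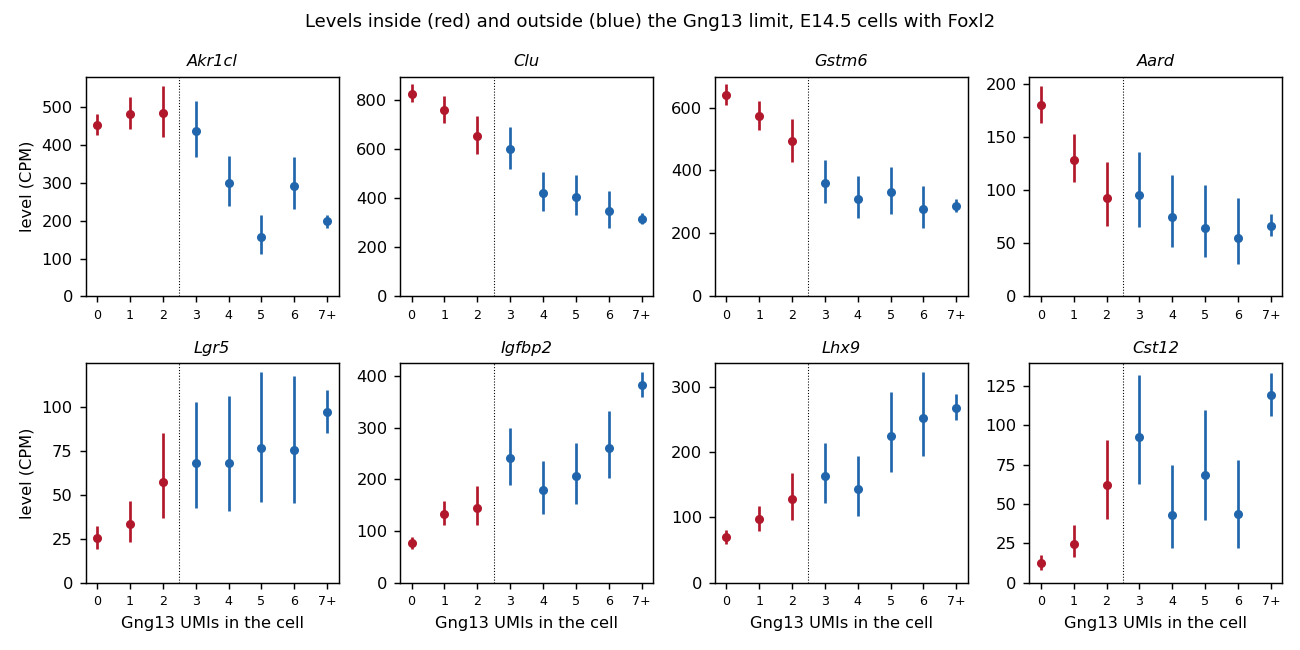
Levels (vertical, CPM, with exact Poisson 95% intervals) of 8 genes by the number of Gng13 UMIs in the cell (horizontal), in E14.5 cells that hold Foxl2 and meet the other limits; red classes are members and blue classes lie outside the limit, marked by the dotted line. Clu, Gstm6 and Aard are lower and Lgr5, Igfbp2, Lhx9 and Cst12 higher towards the right, with Clu at 827 CPM without Gng13 and 317 at 7 or more UMIs.

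By UMIs of Foxl2 the genes did not all run alike. Aard was 84.9 CPM in the 1123 cells just outside, without Foxl2, and 136, 167 and 241 in members with 1, 2 and 3 or more UMIs. Gstm6 was 393 outside and 587, 617 and 677 inside. Clu was 538 outside and 774, 837 and 784 inside, and Akr1cl 297 outside and 451, 496 and 484 inside, neither higher at 3 or more UMIs than at 2. Median depth rose with Foxl2, from 5422 UMIs outside to 6298 at 3 or more, and Gng13 fell from 102 to 48.7 CPM. The part of depth and of Gng13 was not tested. The cells without Foxl2 also held endothelial cells, with Cldn5, a tight junction gene of endothelium, at 76.9 CPM against 0.524 in members. With Wnt6 and Kitl at 0 or 1 UMI, 72 and 59 further cells met every other limit, and Akr1cl was 175 and 324 CPM in them against 387 at 2 UMIs. The mesenchyme marker Col1a1 was 165 and 84.0 CPM in them against 44.7 at 2 UMIs, and the part of mesenchymal cells was not tested. A single UMI of Pax8, a gene of the rete and mesonephric tubules, kept 48 cells out. In these Gstm6 was 218 CPM against 606 in members, Clu 584 against 789.8, Akr1cl 333 against 466 and Aard 130 against 156. Wnt4 was higher, at 553 against 392 CPM.

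Applied one after the other, the limit of 1000 genes left 9800 of the 11060 cells, that on Dazl and Ddx4 7104, that on Wnt6 and Kitl 4784, that on Pax8 4528 and that on Upk3b 4248. Foxl2 then left 1071 and Gng13 the 592 members. Of the cells that met every other limit, 2 lay just outside that of Dazl and Ddx4, with 2 UMIs. Just under the limit of 1000 genes lay 3 cells, and 4 members were just above it. The permitted UMI of Upk3b was held by 10 members, and by 65 that of Dazl or Ddx4. Akr1cl was 426 CPM in those 65 and 472 in the 527 with none.

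Among members thinned to 2000 UMIs, the 10 genes with the largest Fano factor (variance over mean of UMIs) were Hbb-y, Hbb-bs, Hba-a1, Hbb-bt, Hba-a2, Hba-x, Areg, Actb, Malat1 and Sprr1a. The 6 haemoglobin genes had values from 19.9 to 315, against a median of 1.01 over genes. Areg, an EGF-family ligand, had a Fano factor of 9, with all of its 9 thinned UMIs in 1 cell. Sprr1a, a cornified envelope gene, reached 10 UMIs in a single thinned cell. Actb, at 7.78, was spread more widely, with a mean of 9.86 UMIs per thinned cell.

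Before E14.5 the same limits found 320 cells at E12.5, 6.80% of those kept, and 8 at E11.5. After it they found 1831 (17.0%) in the E16.5 library and 535 (13.9%) in that of E18.5. The postnatal libraries gave 1625 cells (26.4%) at P5 and 894 (14.8%) at P1, beside the 5.35% of E14.5. The 8 cells at E11.5 were not compared. Over the 6 ages from E12.5 to P5, median depth within the limits ranged from 5807.5 UMIs at E14.5 to 11872 at E16.5. A limit in UMIs thus did not weigh equally. Gng13-high cells numbered 417, 2533, 1228, 672, 373 and 180 from E12.5 to P5. E14.5 had more Gng13-high cells per member than any of the other 5 ages. The study reported that Foxl2 rises in EPG cells around birth. Whether the limits hold the same kind of cells at P1 and P5 as at E14.5 was not tested.

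The 15 genes that led over the other somatic cells at E14.5 were read again at the other ages. Within the gate 13 of the 15 were at least 2-fold higher at P5 (all genes 6.77%) and 13 at E12.5 (8.06%), with Myl9 on the other side of equality at P5. All 15 were that high at P1 (11.8%), E18.5 (6.93%) and E16.5 (4%). The 15 lowest genes of the same comparison were at least 2-fold lower in 14 of 15 at E12.5 (all genes 8%), 13 of the 13 compared at E16.5 (7.27%) and 13 of 13 at E18.5 (7.38%). In the P1 library these were 12 of 13 (9.96%) and in that of P5 11 of 13 (8.84%), and Igfbp2 lay on the other side of equality at both.

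Against Gng13-high cells the 15 leading genes of that comparison were at least 2-fold higher in 5 of 15 at P5 (all genes 5.07%), 8 at P1 (4.4%) and 9 at E18.5 (4.58%). The count was 11 at E16.5 (4.21%) and 7 at E12.5 (2.1%). Of the 15 lowest genes, 14 were at least 2-fold lower at E16.5 (all genes 2.55%), 13 at P1 (4.1%), 13 at E18.5 (3.52%) and 7 at P5 (5.48%). At E12.5 these were 5 of the 14 compared (0.571%). Calb1 was on the other side of equality at both E12.5 and P5, with Pglyrp1 at the first and Alcam at the second. Of the leading genes, 1, Hsd17b11, lay on the other side of equality at P1 and 6 at P5 (Gstm6, Myl9, Hsd17b11, Gatm, Plin2 and Cpe). Gstm6 was 338 CPM within the gate at P5 and 557 in Gng13-high cells, the reverse of E14.5. Cells within the gate at P5 need not be of the same kind as those at E14.5.

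Within the gate Akr1c14 was lowest at E12.5 and E14.5, at 25.7 and 59.2 CPM. It stood at 103 CPM at E16.5 and at 242 CPM at E18.5. Postnatal levels were 176 CPM (P5) and 226 (P1). The other somatic cells stayed between 3.36 and 29.9 CPM. Clu was 168 CPM at E12.5, 789.8 at E14.5 and 1019.8 at P1. Aard was 101 CPM at E12.5, 156 at E14.5 and 454 at P5. Both Clu and Aard were above Gng13-high cells at every age from E12.5 to P5.

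Mgp within the gate was 515 CPM at P5 and 254 at E16.5, against 55.3 at E14.5 and 5.89 at E12.5, and at each of the 6 ages the other somatic cells were higher. Lgr5 stayed low, from 30.9 CPM at E14.5 to 3.67 at P5, while Gng13-high cells were at 251 at E16.5. Igfbp2 was 99.8 CPM at E14.5, between 282 at E12.5 and 26.5 at E16.5. An age is 1 library, dissociated for 20 to 80 min where the label gives minutes, so that age, library and dissociation cannot be told apart.

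**Figure D4:**
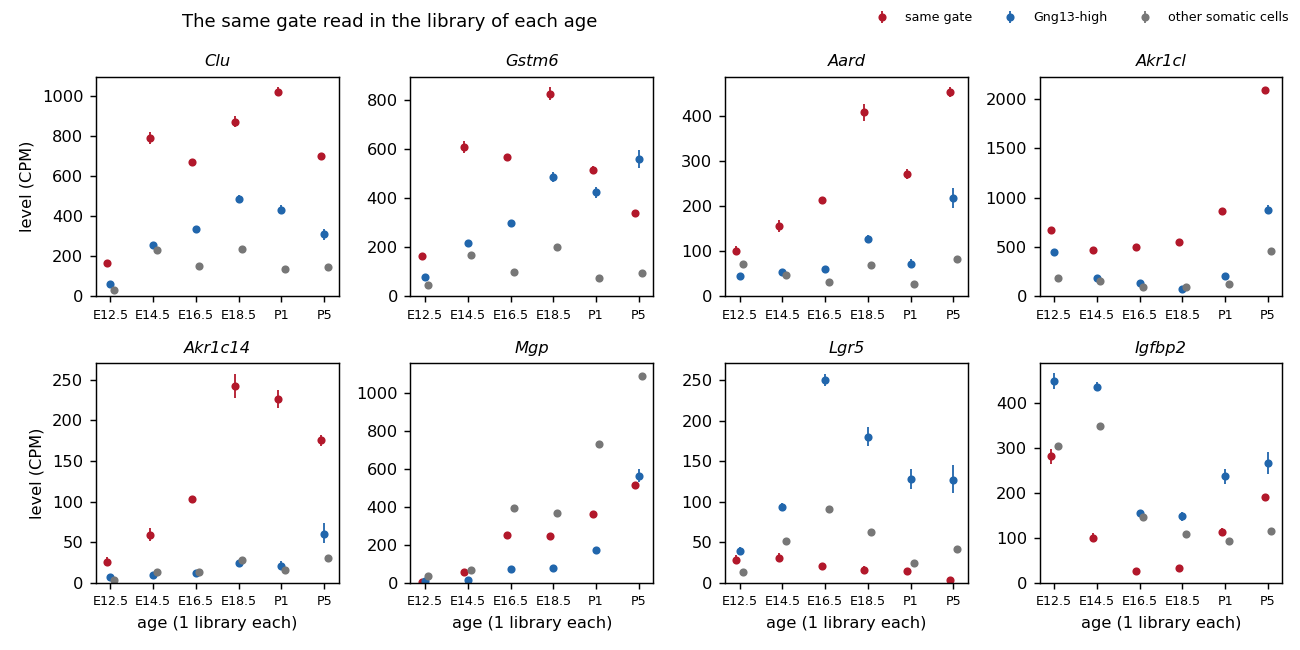
Levels (vertical, CPM, with exact Poisson 95% intervals) of 8 genes at 6 ages, 1 library each (horizontal), within the same gate (red), in Gng13-high cells (blue) and in all other somatic cells (grey). The E14.5 members (second position) have 156 CPM of Aard and 59.2 CPM of Akr1c14, both below the later ages.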

How the data were processed

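The members of the group and all gene lists were chosen with earlier results of these data known. The authors dissociated the gonads with trypsin, prepared 1 10x Genomics library per age with 3′ chemistry, and ran Cell Ranger 3.1.0 on the mm10 reference of 10x Genomics. The authors deposited raw UMI counts over 31053 genes for each called cell, with no normalization. At E14.5 11417 barcodes were deposited and 11060 with at least 200 genes were kept, with 87563864 UMIs in all. UMIs were summed per class and given as CPM with exact Poisson, binomial or conditional 95% intervals. Free RNA and the number of UMIs per cell both bear on limits of 1 or 2 UMIs. Genes at 10 CPM or more in either class and outside the 8 genes of the limits were compared. Genes were named if they are in the fixed lists, among the 15 highest or lowest ratios with 50 CPM added in either comparison, or among the 10 largest Fano factors. Doublets were kept; Scrublet in scanpy 1.11.5, with seed 1, marked 435 cells (3.93%), 17 of them members, for an alternative. Counts were also simulated without variation among cells, for genes above the 10 CPM floor. Of 200 genes changed by more than 2-fold, 199 were recovered, which does not cover genes near either limit. Python 3.11.15, numpy 2.4.6 and scipy 1.17.1 were used. Promoters were matched by symbol. Alternatives were another limit for Gng13, Foxl2, germ cell genes, mitochondrial share or level, other somatic cells held to at least 1000 genes, haemoglobin left out, a gate read at equal depth, and other ways to average. Some genes are not reported here. No sample was left out, and E11.5, with 8 cells inside the limits, was not compared. The authors' clusters were not used here.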

Additional observations from a re-analysis of the deposited data

Results flagged for a closer look

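These genes were at least 2-fold apart in opposite directions at E14.5 and at another age, within the same limits. Whether the limits hold the same kind of cells at P1 and P5 as at E14.5 was not tested. With 1 library per age the differences were not tested, and no group was large enough in samples for a search for outlying samples. Hmga2, an architectural chromatin protein gene, had a ratio to the other somatic cells of 0.331 at E14.5, 2.20 at P1 and 2.71 at P5. Its level in the gate was 37.2 CPM at E14.5 and 44.6 at P5, whereas the other somatic cells stood at 113 and 16.4 CPM. Dkk3, a secreted Dickkopf family protein gene, had a ratio of 3.48 at E14.5 and 0.440 at P5. In the gate it was 10.7 CPM at E14.5 and 11.4 at P5, whereas the other somatic cells stood at 3.08 and 25.9 CPM. Serpine2, a protease inhibitor gene, had 0.408 at E14.5 and 3.35 at P5, with 13.1 and 846 CPM in the gate. Calb1 had 0.391 at E14.5 and 8.18 at P5, and against Gng13-high cells 0.202 and 5.99. With the limits read on 2000 UMIs per cell its E14.5 ratio to the other somatic cells was 0.751, which is not 2-fold lower. Pglyrp1 had a ratio to the other somatic cells of 0.135 at E14.5 and 4.48 at E12.5, with 3.93 and 111 CPM in the gate.

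The other values are ratios to Gng13-high cells. Ccnb1, a mitotic cyclin, had a ratio of 0.394 at E14.5, 2.56 at E16.5 and 4.81 at P5. Its levels were low, at 4.45 against 11.3 CPM, 12.4 against 4.82 and 25.6 against 5.32, in that order. Pclaf, a PCNA-binding factor gene, had 0.436 at E14.5, 2.51 at E16.5 and 2.39 at P5. Rrm2, a subunit of ribonucleotide reductase, had 0.415 at E14.5 and 2.15 at P5. With the limits read on 2000 UMIs per cell the E14.5 ratios were 0.765 for Ccnb1, 0.577 for Pclaf and 0.514 for Rrm2, and with Foxl2 at 2 UMIs or more that of Pclaf was 0.858, so that none of these would be 2-fold lower there. The P5 values of Gng13-high cells rest on 180 cells.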

How the results depend on the processing

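No paired analysis was possible because each age is 1 library with no test. Limits of 1 or 2 UMIs depend on depth. Genes counted below as higher or lower were so by at least 2-fold. With Foxl2 at 2 UMIs or more, 193 cells were members, and the genes at least 2-fold higher than in the other somatic cells numbered 320, those higher than in Gng13-high cells 398 and those lower 247. With the limits read on 2000 UMIs per cell, 223 cells were members and 348 genes were higher than in the other somatic cells. With a floor of 20 CPM, 181 genes were lower than in the other somatic cells, and 150 were higher and 89 lower than in Gng13-high cells. With a floor of 5 CPM, 543 and 269 were lower, in that order. The remaining counts stayed within 1.5 times of the reported ones. Without cells that Scrublet marked, 575 members were left. Values past 2-fold as reported were counted once per setting of cells and averages, 1121 in all for the 98 genes examined. Of these, 1070 were still past it on the same side under the setting. Of all 1850 values counted in this way, past 2-fold or not, 351 moved beyond their counting interval. Among them were 117 of 196 with the limits read on 2000 UMIs and 105 of 196 with Foxl2 at 2 UMIs or more. The lost values at 2000 UMIs were Lhx9, Cst12, Igf1, Calb1, Mycn, Adamts19, Thbs1 and Map1b against the other somatic cells and Mt1, Pclaf, Cst8, Mfap2, Ccnb1 and Rrm2 against Gng13-high cells. In other settings the values lost against the other somatic cells were those of Hsd17b7, Stra6, Map1b, Bmpr1b, Fst and the 6 haemoglobin genes, and against Gng13-high cells those of Ptgds, Bex3, Gstm1, Cst8, Pclaf and Rrm2. One value changed side, Hba-x, at 1.05 against the other somatic cells without cells over 5% haemoglobin, a setting chosen after seeing the data. The cause was not tested.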
